A study of Mus musculus with 16 samples.

Results

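Dbh, Th, Npy, Sox10, Gfra3, Mbp and Cdh19 are genes of sympathetic nerve fibres and of the Schwann cells that ensheath them, and their transcripts were counted in mouse heart ventricles with and without pressure overload. The 7 genes were chosen by name from a table of 24421 gene entries, and each has an entry there. The rule used no measured value, but the genes were chosen with earlier results of these data known. Of the 7 genes, 5 passed the filter on low counts that 13522 of the 24421 entries passed. Th and Npy did not pass it and are described by their counts. The libraries came from 4 groups of 4: homozygous JP2CR knock-in mice after transverse aortic constriction (JP2CR TAC), JP2CR mice after sham surgery (JP2CR sham), wildtype littermates after TAC (WT TAC) and wildtype littermates after sham surgery (WT sham). JP2CR is an allele of Jph2 without codons 563 to 568, whose product, junctophilin-2, resists cutting by the protease calpain. All mice were labelled male and C57BL/6N, had surgery at 9 to 10 weeks of age and gave their ventricles 5 weeks later. TAC is a surgical band on the aorta against which the left ventricle must pump. The design asks whether the transcript response to this load differs when junctophilin-2 cannot be cut at that site. The labels do not tie a library to a named animal, so each p-value rests on library-to-library spread, which may be technical.

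The sympathetic nerves of the heart raise rate and force by releasing noradrenaline, often together with neuropeptide Y. Their cell bodies lie outside the ventricle, mainly in the stellate ganglia, and the fibres run through the ventricle wall. Tyrosine hydroxylase (Th) makes DOPA from tyrosine, aromatic amino acid decarboxylase (Ddc) makes dopamine from DOPA, and dopamine beta-hydroxylase (Dbh) makes noradrenaline from dopamine inside vesicles. Schwann cells descend from the neural crest, wrap small fibres without myelin or large fibres with it, and depend on the transcription factor Sox10. In ventricle tissue the nerves and their glia are a small share of the material.

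On GRCm38 coordinates Dbh lies on chromosome 2 at 27165233 to 27183200 on the plus strand. Th lies on chromosome 7 at 142892752 to 142931128 on the minus strand, and Npy on chromosome 6 at 49822710 to 49829507 on the plus strand. Sox10 lies on chromosome 15 at 79154908 to 79165240 on the minus strand, and Cdh19 on chromosome 1 at 110888326 to 110977584 on the minus strand. RefSeq promoter entries (GRCm38.p6) matched 3 of the 7 genes by symbol, namely Dbh, Th and Npy. The sequences before the starts of Npy and Th are shown because the transcripts of these 2 genes, transmitter peptide and first enzyme of the pathway, were the ones near the counting floor in these ventricles. They are the bases before the RefSeq start of each gene (250 bases for Npy and the 231 that lie outside annotated exons for Th), 5′ to 3′ on the gene's strand, and capitals mark the motif matches. The RefSeq start of Th lies inside the annotated span given above, so its window is not at the outer end of that span.
Npy, chr6:49822460-49822709, plus strand: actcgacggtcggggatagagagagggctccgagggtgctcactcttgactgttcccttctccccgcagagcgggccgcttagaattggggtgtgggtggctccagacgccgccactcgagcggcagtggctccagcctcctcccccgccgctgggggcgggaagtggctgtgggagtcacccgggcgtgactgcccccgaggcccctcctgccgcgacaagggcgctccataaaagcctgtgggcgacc
Th, chr7:142900015-142900245, minus strand: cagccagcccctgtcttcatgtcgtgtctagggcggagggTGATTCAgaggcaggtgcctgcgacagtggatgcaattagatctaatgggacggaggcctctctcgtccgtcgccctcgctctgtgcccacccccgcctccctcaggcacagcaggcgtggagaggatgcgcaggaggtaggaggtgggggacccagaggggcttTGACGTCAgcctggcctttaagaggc
The motifs below were searched on both strands over the 250 bases before each start. TGACGTCA, the cyclic AMP response element, stood at -45 to -38 from the start of Th, and 1.55% of the 32851 promoter windows in the table hold it. TGANTCA, bound by AP-1 factors, matched as TGATTCA at -210 to -204 of Th, and 6.75% of the windows hold it. No match of these motifs, of the Sox motifs ACAAAG and also ACAATG, or of the Egr motif GCGTGGGCG stood in the windows of Npy and Dbh, while 16.5%, 10.7% and 0.536% of all windows hold the last 3 motifs.

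All 7 genes were low in these libraries. Library totals ran from 9966782 to 16609732 counts, so that 3 counts, taken as the floor, corresponded to 0.185 to 0.314 CPM (counts relative to library totals scaled by the TMM factors of edgeR), which covers counting error only. Per kilobase of annotated exon, mean levels in WT sham ventricles were 1.98 CPM for Dbh, 1.96 for Gfra3, 1.05 for Cdh19, 0.998 for Mbp, 0.969 for Sox10, 0.657 for Npy and 0.0212 for Th. Dbh and Gfra3 were nearly level in this order, and Cdh19, Mbp and Sox10 were nearly level with each other. In WT TAC ventricles the same scale gave 0.385 CPM for Dbh, 0.424 for Gfra3, 0.740 for Cdh19, 0.468 for Mbp and 0.379 for Sox10. Cdh19 was thus the highest of the 7 per kilobase in WT TAC ventricles, and also in JP2CR TAC ventricles with 0.994 CPM.

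Before the results, some libraries stood apart from their labels or groups. Xist stood at 189 CPM in JP2CR sham 3 and at 196 CPM in JP2CR sham 4, both with no Y-linked count, and at 141 CPM in JP2CR TAC 4 beside 118 CPM summed over Y-linked genes. The other 13 libraries had at most 0.266 CPM of Xist. Among genes on which replicates 1 and 2 of a group differed by at least 0.5 (log2), replicate 3 lay between them for 79.5% in JP2CR TAC and 47.3% in JP2CR sham, and for 79.6% in WT TAC and 69.2% in WT sham. Results are also given without these 3 Xist-positive libraries, and without replicate 3 of both TAC groups. This was done where a call of a named gene of the nerve lists changed. Between the sham groups, values without the Xist-positive libraries are given for all tested genes of the 7. Atrial muscle markers (10 genes, such as Myl4, Myl7 and Sln) also differed between libraries, with a mean log2 CPM of 4.46 to 5.14 in JP2CR TAC and 2.21 to 6.26 in JP2CR sham, and of 3.07 to 4.14 in WT TAC and 5.70 to 6.81 in WT sham.

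Of the genes that make noradrenaline, Dbh fell after TAC in both genotypes. In JP2CR TAC ventricles Dbh had 1.35, 1.61, 1.16 and 1.20 CPM, against 5.28, 8.69, 3.76 and 3.03 CPM in JP2CR sham ventricles. In WT TAC ventricles it had 0.620, 0.996, 1.01 and 1.53 CPM, against 4.11, 6.33, 5.37 and 5.54 CPM in WT sham ventricles. Every TAC library lay below every sham library, and the JP2CR sham group was the most spread, with a mean of 5.19 ± 2.51 CPM (SD, n = 4). The log2 fold change of TAC over sham was -1.96 ± 0.30 (SE) in JP2CR, a level 3.88-fold lower, with an adjusted p of 6.19e-05 (edgeR quasi-likelihood F test, Benjamini-Hochberg over all 13522 tested genes). In WT it was -2.37 ± 0.31, a level 5.16-fold lower, with an adjusted p of 9.95e-06 in the same edgeR fit. In bulk tissue, fewer cells or fibres of a type and less RNA per cell cannot be told apart.

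The authors' deposited table gives Dbh a log2 fold change of -1.44 in JP2CR (adjusted p = 5.7e-07) and of -2.0 in WT (adjusted p = 1.64e-16). The atrial markers moved with surgery too. JP2CR sham 4, the library with the lowest mean log2 CPM of the atrial markers of all 16 (their summed CPM was lower in 3 WT TAC libraries), also had the lowest Dbh of its group, 3.03 CPM, which was above the highest TAC library. With the atrial marker mean as a covariate in edgeR, Dbh stayed called lower, with a log2 fold change of -1.80 in JP2CR (adjusted p = 9.26e-05) and of -1.68 ± 0.42 in WT (adjusted p = 0.00705). In WT the atrial means of TAC and sham libraries did not overlap, so such a fit cannot separate atrial content from surgery there. In JP2CR only JP2CR sham 4 was not above every TAC library.

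Th, the first enzyme of the same pathway, gave 9 counts in all 16 libraries together. Its counts were 0, 1, 0 and 1 in JP2CR TAC, 0, 0, 2 and 0 in JP2CR sham, 1, 0, 1 and 0 in WT TAC, and 0, 1, 0 and 2 in WT sham. All libraries were at or below 2 counts, so no fold change is given, and a difference in Th was not detectable at this depth. The exact two-sided permutation test on mean CPM gave p = 1 for TAC against sham in each genotype, where 4 against 4 libraries allow no p below 0.0286.

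Npy, the peptide released with noradrenaline, gave 32 counts in all, 22 of them in WT sham. The counts were 2, 1, 0 and 1 in JP2CR TAC, 1, 2, 2 and 0 in JP2CR sham, 0, 0, 0 and 1 in WT TAC, and 0, 12, 4 and 6 in WT sham. WT sham 1 had no count while the other WT sham libraries had the 3 highest of all 16, so the groups overlap. Exact two-sided permutation tests on mean CPM gave p = 0.714 for TAC against sham in JP2CR and p = 0.143 in WT, and p = 0.143 for JP2CR sham against WT sham. Without WT sham 1 the last 2 of these comparisons gave an exact permutation p of 0.0286, the smallest that 4 against 3 libraries allow. Leaving out the WT sham library that made the groups overlap fixes this p in advance, so it adds no support. Fitted by edgeR without the filter, Npy had a log2 fold change of -0.35 ± 1.05 in JP2CR (adjusted p = 0.865) and of -3.80 ± 1.03 in WT (adjusted p = 0.00741). The difference between these effects was 3.46 ± 1.63 (edgeR adjusted p = 0.568). Outside WT sham no library had more than 2 counts of Npy, so this fit is not taken as a call.

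Among the Schwann cell genes, Sox10, the transcription factor that specifies and maintains glia of the peripheral nerves, fell after TAC in both genotypes. It had 1.42, 1.69, 0.927 and 1.27 CPM in JP2CR TAC, against 3.28, 2.56, 3.82 and 2.61 CPM in JP2CR sham. It had 1.32, 1.20, 0.670 and 1.45 CPM in WT TAC, against 2.60, 3.91, 2.61 and 2.70 CPM in WT sham. No TAC library reached any sham library of its genotype. The edgeR log2 fold change was -1.23 ± 0.24 in JP2CR (2.34-fold lower, adjusted p = 0.000589) and -1.35 ± 0.25 in WT (2.55-fold lower, adjusted p = 0.000268).

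Gfra3, which encodes the receptor subunit for artemin and signals through Ret, is made by peripheral glia and by some neurons, and lies on chromosome 18 at 34689898 to 34720387 on the minus strand. Gfra3 had 0.599, 1.21, 1.70 and 2.27 CPM in JP2CR TAC, against 2.42, 4.21, 3.39 and 3.66 CPM in JP2CR sham. In WT TAC it had 0.775, 1.06, 0.503 and 1.04 CPM, against 4.11, 3.97, 3.50 and 4.09 CPM in WT sham. The groups did not overlap in either genotype, but in JP2CR the highest TAC library, JP2CR TAC 4, came close to the lowest sham library. The edgeR log2 fold change was -1.21 ± 0.28 in JP2CR (2.31-fold lower, adjusted p = 0.00238) and -2.18 ± 0.30 in WT (4.54-fold lower, adjusted p = 1.74e-05). Artn, its ligand, had 26 counts in the 16 libraries and was not tested.

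Mbp encodes myelin basic protein, which compacts the myelin sheath, and lies on chromosome 18 at 82475146 to 82585637 on the plus strand. Transcripts of the same locus without a role in myelin are also made in cells other than glia, and counts per symbol do not separate them. Mbp had 5.09, 3.87, 4.79 and 5.48 CPM in JP2CR TAC, against 8.41, 7.69, 7.52 and 5.23 CPM in JP2CR sham. It had 5.73, 2.66, 3.52 and 3.93 CPM in WT TAC, against 6.96, 10.8, 7.25 and 8.80 CPM in WT sham. The WT groups did not overlap, while JP2CR TAC 4 lay above JP2CR sham 4. In edgeR it fell with a log2 fold change of -0.59 ± 0.21 in JP2CR (1.51-fold lower, adjusted p = 0.0288) and of -1.11 ± 0.21 in WT (2.16-fold lower, adjusted p = 0.000355).

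The Mbp call in JP2CR was lost in edgeR without replicate 3 of both TAC groups (adjusted p = 0.0689), and without any one of JP2CR sham 1, 2 or 3 or of JP2CR TAC 2 or 3 (adjusted p from 0.054 to 0.0882). With the atrial marker mean as a covariate in edgeR, Mbp had -0.47 in JP2CR (adjusted p = 0.0424) and -0.51 ± 0.27 in WT, where it was no longer called (adjusted p = 0.179).

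Cdh19, a cadherin of the Schwann cell lineage, was not called in either genotype. Its levels were 2.92, 4.19, 3.55 and 6.35 CPM in JP2CR TAC, against 4.42, 5.12, 7.96 and 4.71 CPM in JP2CR sham. In WT TAC they were 2.48, 3.12, 4.02 and 3.05 CPM, against 4.36, 4.84, 4.8 and 3.95 CPM in WT sham. In JP2CR the ranges overlapped widely, with JP2CR TAC 4 above 3 of the 4 sham libraries, and in WT a single pair of libraries, WT TAC 3 and WT sham 4, crossed. The edgeR log2 fold change was -0.39 ± 0.23 in JP2CR (adjusted p = 0.178) and -0.51 ± 0.24 in WT (adjusted p = 0.0993). Without the 3 Xist-positive libraries edgeR called it lower in WT (-0.51, adjusted p = 0.0188), as did a fit of the WT groups alone (adjusted p = 0.0225), and without JP2CR TAC 4 it was called lower in JP2CR (-0.66, adjusted p = 0.0216). The authors' deposited table gives it an adjusted p of 0.320 in JP2CR and of 0.0422 in WT.

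**Figure D1:**
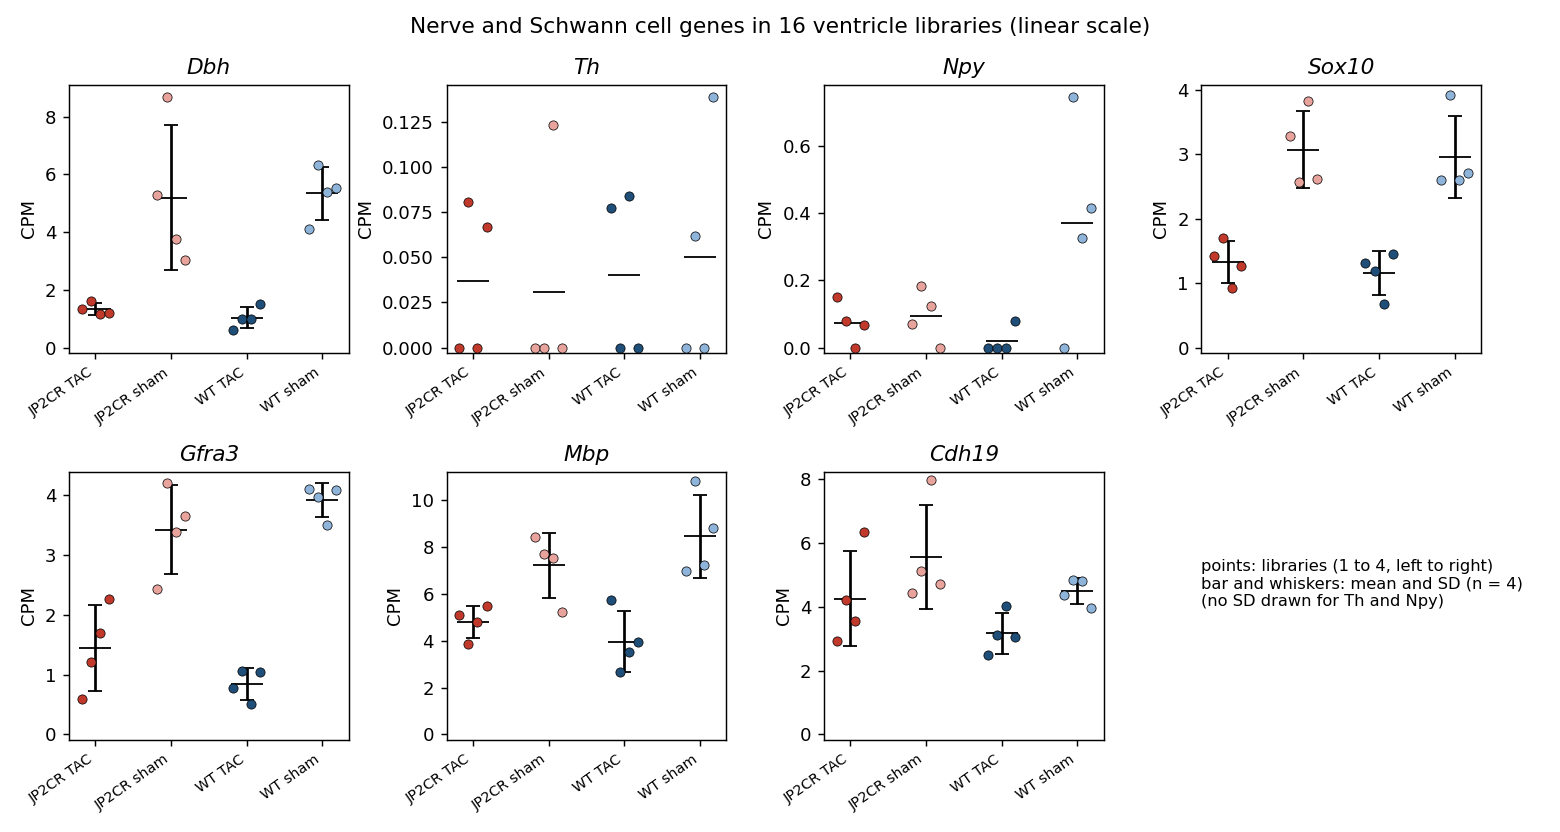
Levels in CPM (vertical axes, linear from 0, different in each panel) of the 7 genes in JP2CR TAC, JP2CR sham, WT TAC and WT sham libraries, with libraries 1 to 4 from left to right as points and the mean and SD (n = 4) as bars; no SD is drawn for Th and Npy. Dbh, Sox10 and Gfra3 have all TAC points below all sham points of the same genotype, Mbp has this in WT only, and Cdh19 overlaps in both genotypes.

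Counted together, 4 of the 5 tested genes were called lower in JP2CR TAC than in JP2CR sham (Dbh, Sox10, Gfra3 and Mbp) and the same 4 were called lower in WT TAC than in WT sham. Over all tested genes, 20.7% were called lower in JP2CR and 20.8% in WT. In JP2CR 3 of the 5 had every TAC library below every sham library, against 17.3% of all tested genes, and in WT 4 of the 5, against 21.0%. The median log2 fold change of the 5 was -1.21 in JP2CR and -1.35 in WT, beside a median over all tested genes of -0.00 in each. Without the 3 Xist-positive libraries 4 were called lower in JP2CR and 5 in WT, and without replicate 3 of both TAC groups 3 in JP2CR and 4 in WT. Because Th and Npy had too few counts, these shares are of the 5 genes that passed the filter and not of the 7. The genes were chosen with earlier results of these data known, so the shares describe them and are no independent test.

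In JP2CR the fitted log2 fold changes ran from -1.96 for Dbh over -1.23 for Sox10, -1.21 for Gfra3 and -0.59 for Mbp to -0.39 for Cdh19. In WT they ran from -2.37 for Dbh over -2.18 for Gfra3, -1.35 for Sox10 and -1.11 for Mbp to -0.51 for Cdh19, and there the standard errors of Dbh and Gfra3 overlap, as do those of Sox10 and Mbp. Differences between genes were not tested.

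**Figure D2:**
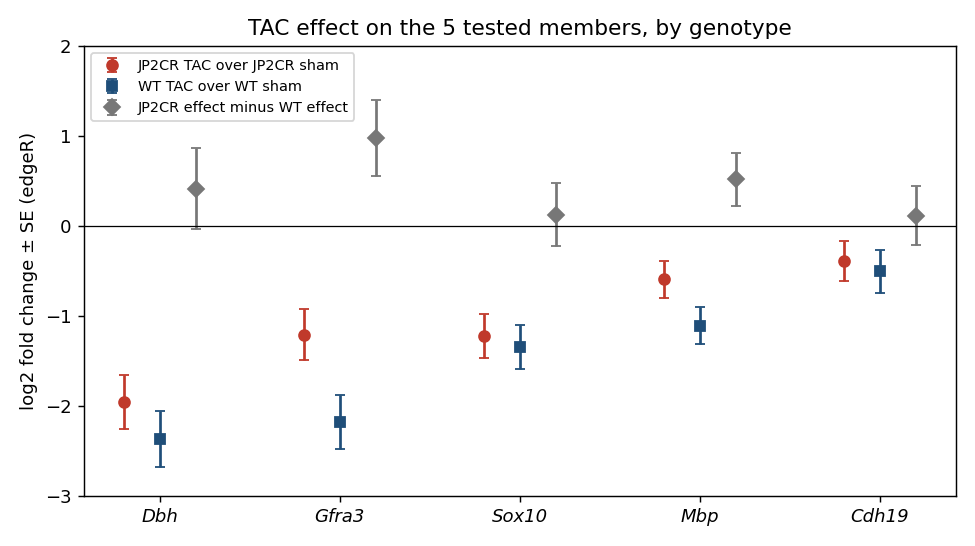
Log2 fold change of TAC over sham (vertical axis, with the edgeR standard error) for the 5 tested genes in JP2CR (circles) and WT (squares), and the JP2CR effect minus the WT effect (diamonds). The JP2CR circles lie between -1.96 and -0.39 and the WT squares between -2.37 and -0.51, and every diamond lies above 0, of which none was called.

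Whether the TAC effect differs between the genotypes was tested as an interaction over all 13522 genes, of which 0.118% were called in either direction. None of the 5 genes was called by edgeR, DESeq2 or limma voom, and 1 had an unadjusted edgeR p under 0.05. That was Gfra3, with a JP2CR effect minus WT effect of 0.97 ± 0.42 on the log2 scale (edgeR adjusted p = 0.419). For Mbp the difference was 0.52 ± 0.29 (edgeR adjusted p = 0.586) and for Dbh 0.41 ± 0.45 (edgeR adjusted p = 0.814). Sox10 and Cdh19 differed by 0.12 ± 0.35 and 0.11 ± 0.33 (edgeR adjusted p = 0.939 for each). For Gfra3 the unadjusted edgeR p was 0.0337, and the adjustment over 13522 genes took it above the threshold. For the other genes the standard errors are wide next to the fitted differences, and differences of those sizes were not detectable in these libraries.

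Between the genotypes without load, JP2CR sham against WT sham, none of the 5 genes was called by edgeR, DESeq2 or limma voom, and none had an unadjusted edgeR p under 0.05, where 0.0961% of all genes were called. The log2 fold changes of JP2CR over WT were 0.32 ± 0.23 for Cdh19, 0.06 ± 0.22 for Sox10, -0.05 ± 0.25 for Dbh, -0.21 ± 0.25 for Gfra3 and -0.23 ± 0.20 for Mbp, with edgeR adjusted p from 0.785 to 0.977. Without the 3 Xist-positive libraries they were 0.08 ± 0.19 for Cdh19, -0.02 ± 0.27 for Sox10 and 0.36 ± 0.23 for Dbh. Gfra3 then had -0.27 ± 0.28 and Mbp -0.08 ± 0.22. Dbh and Sox10 thus changed sign, and none was called (edgeR adjusted p from 0.645 to 0.99). Dbh averaged 5.19 ± 2.51 CPM in JP2CR sham and 5.34 ± 0.920 CPM in WT sham (SD, n = 4 each), and Gfra3 averaged 3.42 ± 0.747 CPM in JP2CR sham and 3.92 ± 0.285 CPM in WT sham.

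Between the genotypes under load, JP2CR TAC against WT TAC, 0.651% of all genes were called and again none of the 5 by edgeR, DESeq2 or limma voom. All 5 fitted values were above 0. Gfra3 averaged 1.45 ± 0.712 CPM in JP2CR TAC and 0.846 ± 0.264 CPM in WT TAC (SD, n = 4 each). It was the 1 gene with an unadjusted edgeR p under 0.05, at a log2 fold change of 0.77 ± 0.34 (edgeR adjusted p = 0.35). The others were Cdh19 with 0.44 ± 0.24, Dbh with 0.36 ± 0.37, Mbp with 0.29 ± 0.22 and Sox10 with 0.19 ± 0.27 (edgeR adjusted p from 0.479 to 0.845). This comparison shares its TAC libraries with the comparisons of TAC against sham. Without JP2CR TAC 4, the library with both Xist and Y-linked counts, the log2 fold change of Gfra3 was 0.44 and that of Cdh19 0.17.

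The name sympathetic rested on few genes in these ventricles. In a list of 18 genes of sympathetic neurons and noradrenaline handling, 6 passed the filter on low counts. The transporter that takes noradrenaline back up, Slc6a2, had 55 counts over the 16 libraries, the transcription factor Phox2a had 62, and chromogranin A (Chga) had 23. The 6 tested genes split in both directions, with 1 higher and 3 lower after TAC in JP2CR, and 2 higher and 3 lower in WT, at a median log2 fold change of -0.40 in JP2CR and -0.23 in WT. Over all tested genes 20.7% were called higher and 20.7% lower in JP2CR, and 21.1% higher and 20.8% lower in WT.

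Besides Dbh, 2 genes of noradrenaline handling were called lower in both genotypes. Ddc averaged 2.70 ± 0.847 CPM in JP2CR TAC and 6.79 ± 1.26 in JP2CR sham, and 3.15 ± 0.873 in WT TAC and 5.30 ± 0.540 in WT sham (SD, n = 4 each). Its edgeR log2 fold change was -1.32 ± 0.21 in JP2CR (adjusted p = 0.000105) and -0.76 ± 0.21 in WT (adjusted p = 0.00831). Slc18a2, which loads monoamines into vesicles, had -0.99 ± 0.36 in JP2CR (edgeR adjusted p = 0.0359) and -1.40 ± 0.39 in WT (edgeR adjusted p = 0.00773). The JP2CR call of Slc18a2 was lost in limma voom (adjusted p = 0.0635), without the 3 Xist-positive libraries (adjusted p = 0.161), and without any one of JP2CR sham 1 or 3 or of JP2CR TAC 1, 2 or 4 (edgeR adjusted p from 0.0505 to 0.193). It was also lost in edgeR in a fit of the JP2CR groups alone (adjusted p = 0.0833) and with the atrial marker mean as a covariate (-0.74, adjusted p = 0.105). In WT, with that covariate, edgeR no longer called Ddc (-0.82, adjusted p = 0.0702) or Slc18a2 (-0.43, adjusted p = 0.613).

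Uchl1, a ubiquitin hydrolase abundant in neurons and also made elsewhere, was higher after TAC, at 30.1 ± 11.8 CPM in JP2CR TAC and 9.98 ± 2.65 in JP2CR sham, and at 28.6 ± 4.2 in WT TAC and 11.0 ± 0.958 in WT sham. Its edgeR log2 fold change was 1.56 ± 0.23 in JP2CR (adjusted p = 3.85e-05) and 1.38 ± 0.22 in WT (adjusted p = 9.61e-05).

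In a list of 20 Schwann cell genes, 16 passed the filter, and after TAC 1 was higher and 7 lower in JP2CR, and 1 higher and 9 lower in WT. The median log2 fold change was -0.37 in JP2CR and -0.72 in WT. Without the 4 genes Sox10, Gfra3, Mbp and Cdh19, the 12 others gave 1 higher and 4 lower in JP2CR, and 1 higher and 6 lower in WT, beside the 20.7% and 20.8% of all genes called lower.

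The potassium channel genes Kcna1 and Kcna2, whose channels sit beside the nodes of myelinated fibres and are not limited to nerve, were lower in both genotypes. Kcna1 had a log2 fold change of -1.49 ± 0.22 in JP2CR (edgeR adjusted p = 4.79e-05) and of -2.77 ± 0.24 in WT (edgeR adjusted p = 1.14e-07). Kcna2 had -1.0 ± 0.21 in JP2CR (edgeR adjusted p = 0.000834) and -1.24 ± 0.20 in WT (edgeR adjusted p = 8.38e-05). The gene called higher was Pmp22, a myelin protein also made by fibroblasts and vessel cells, with 0.55 ± 0.09 in JP2CR (edgeR adjusted p = 9.31e-05) and 0.24 ± 0.09 in WT (edgeR adjusted p = 0.0398). Without any one of the WT libraries other than WT TAC 1, the WT call of Pmp22 was lost (edgeR adjusted p from 0.0538 to 0.101), as it was without replicate 3 of both TAC groups (adjusted p = 0.0904) and with the atrial covariate (adjusted p = 0.0783).

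The genes through which nerves and glia receive growth signals were listed as 18 neurotrophic factors and receptors, 15 of them tested. After TAC 1 was higher and 7 lower in JP2CR, and 2 higher and 6 lower in WT, at a median log2 fold change of -0.22 in JP2CR and -0.19 in WT. Without Gfra3 the 14 others gave 1 higher and 6 lower in JP2CR, and 2 higher and 5 lower in WT, beside the 20.7% and 20.8% of all genes called lower and the 20.7% and 21.1% called higher. Ret, the kinase with which Gfra3 signals, averaged 5.23 ± 1.5 CPM in JP2CR TAC and 9.35 ± 1.18 in JP2CR sham, and 4.78 ± 0.231 in WT TAC and 9.35 ± 0.876 in WT sham. Its edgeR log2 fold change was -0.84 ± 0.16 in JP2CR (adjusted p = 0.000397) and -0.97 ± 0.16 in WT (adjusted p = 9.81e-05). Gfra1, the subunit that binds GDNF, had -0.98 ± 0.18 in JP2CR (edgeR adjusted p = 0.00026) and -1.43 ± 0.18 in WT (edgeR adjusted p = 5.6e-06).

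The receptor kinases Ntrk2, for BDNF, and Ntrk3, for neurotrophin 3, varied more. Ntrk2 had 1.92 ± 0.553 CPM in JP2CR TAC and 2.15 ± 1.34 in JP2CR sham, and 1.03 ± 0.122 in WT TAC and 4.85 ± 1.56 in WT sham. Its log2 fold change was -0.22 ± 0.35 in JP2CR (edgeR adjusted p = 0.654) and -2.24 ± 0.36 in WT (edgeR adjusted p = 7.9e-05), and none of the 15 genes was called in the interaction. Without JP2CR sham 3 the JP2CR value of Ntrk2 was 0.33, so that 1 library sets its sign. Ntrk3 had -1.72 ± 0.53 in JP2CR (edgeR adjusted p = 0.0143) and -2.60 ± 0.51 in WT (edgeR adjusted p = 0.000512). The JP2CR call of Ntrk3 was lost in edgeR without JP2CR sham 3 (adjusted p = 0.095), without replicate 3 of both TAC groups (adjusted p = 0.0589), with the groups compared alone (adjusted p = 0.0531) and with the atrial marker mean as a covariate (adjusted p = 0.0605). In WT neither Ntrk2 (adjusted p = 0.11) nor Ntrk3 (adjusted p = 0.489) was called by edgeR with the atrial marker mean as a covariate.

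On the receiving side, 12 of 15 genes for receptors and breakdown of sympathetic transmitters were tested, with 1 higher and 6 lower after TAC in JP2CR, and 1 higher and 7 lower in WT. Of all tested genes, 20.7% were called higher and 20.7% lower in JP2CR, and 21.1% higher and 20.8% lower in WT. The median log2 fold change was -0.69 in JP2CR and -0.74 in WT. Maob, which oxidises monoamines, averaged 45.4 ± 5.19 CPM in JP2CR TAC and 90.3 ± 9.18 in JP2CR sham, and 36.1 ± 2.71 in WT TAC and 98.1 ± 8.04 in WT sham. The edgeR log2 fold change of Maob was -0.99 ± 0.09 in JP2CR (adjusted p = 2.88e-07) and -1.44 ± 0.09 in WT (adjusted p = 3.74e-09).

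Adra1b, an alpha-1 adrenergic receptor, fell by 1.52 ± 0.20 on the log2 scale in JP2CR (edgeR adjusted p = 1.47e-05) and by 1.67 ± 0.20 in WT (edgeR adjusted p = 3.84e-06). Slc22a3, which clears catecholamines from outside nerve endings, fell by 1.31 ± 0.22 in JP2CR (edgeR adjusted p = 0.000146) and by 1.81 ± 0.22 in WT (edgeR adjusted p = 4.23e-06). Of 8 parasympathetic genes 2 were tested: Ache, which breaks down acetylcholine, was lower in JP2CR (-0.71 ± 0.19, edgeR adjusted p = 0.0063) and in WT (-0.87 ± 0.19, edgeR adjusted p = 0.00147), and the muscarinic receptor gene Chrm2 was not called in either. Chrm2 was called higher in JP2CR by limma voom (0.51, adjusted p = 0.0476), by edgeR with the atrial covariate (0.49, adjusted p = 0.047), and by edgeR without JP2CR sham 1 (0.55, adjusted p = 0.0476) or JP2CR sham 2 (0.61, adjusted p = 0.017). With the atrial marker mean as a covariate, edgeR no longer called Ache (adjusted p = 0.398) or Kcna2 (adjusted p = 0.0563) in WT.

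**Figure D3:**
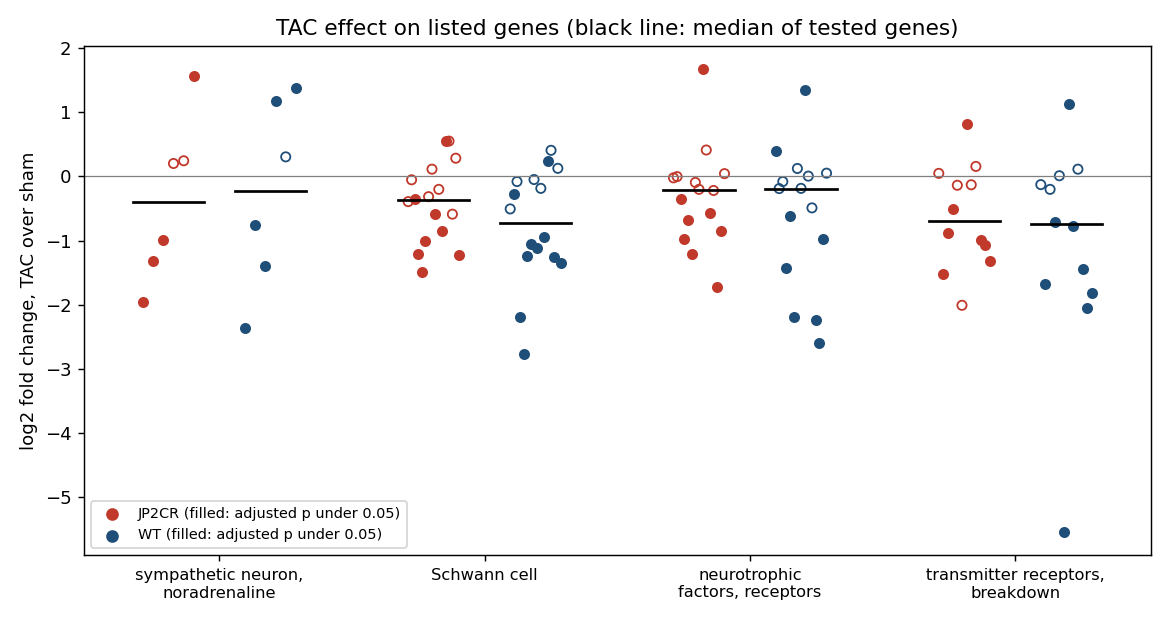
Log2 fold change of TAC over sham (vertical axis) of every tested gene of the 4 lists in JP2CR (left of each pair) and WT (right), with filled points for an adjusted p under 0.05 in edgeR and a black line at the list's median. The medians lie between -0.74 and -0.19, and each list holds called genes above and below 0.

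Genes of other cell types were counted beside these. The atrial markers fell in 5 of 10 cases in JP2CR and in 10 of 10 in WT, and their summed level was 527 to 805 CPM in JP2CR TAC and 322 to 2515 in JP2CR sham, and 189 to 445 in WT TAC and 1669 to 2634 in WT sham. In JP2CR sham 4, where the atrial mean of 2.21 (log2 CPM) lay below that of every TAC library, Gfra3 at 3.66 CPM and Sox10 at 2.61 CPM were within the range of the other JP2CR sham libraries, and Dbh at 3.03 CPM and Mbp at 5.23 CPM were the lowest of their group. Gfra3 remained called with the atrial mean as a covariate in edgeR, at -1.21 in JP2CR (adjusted p = 0.00334) and -2.20 in WT (adjusted p = 0.00154), and so did Sox10, at -1.18 in JP2CR (adjusted p = 0.00118) and -1.11 in WT (adjusted p = 0.0353).

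**Figure D4:**
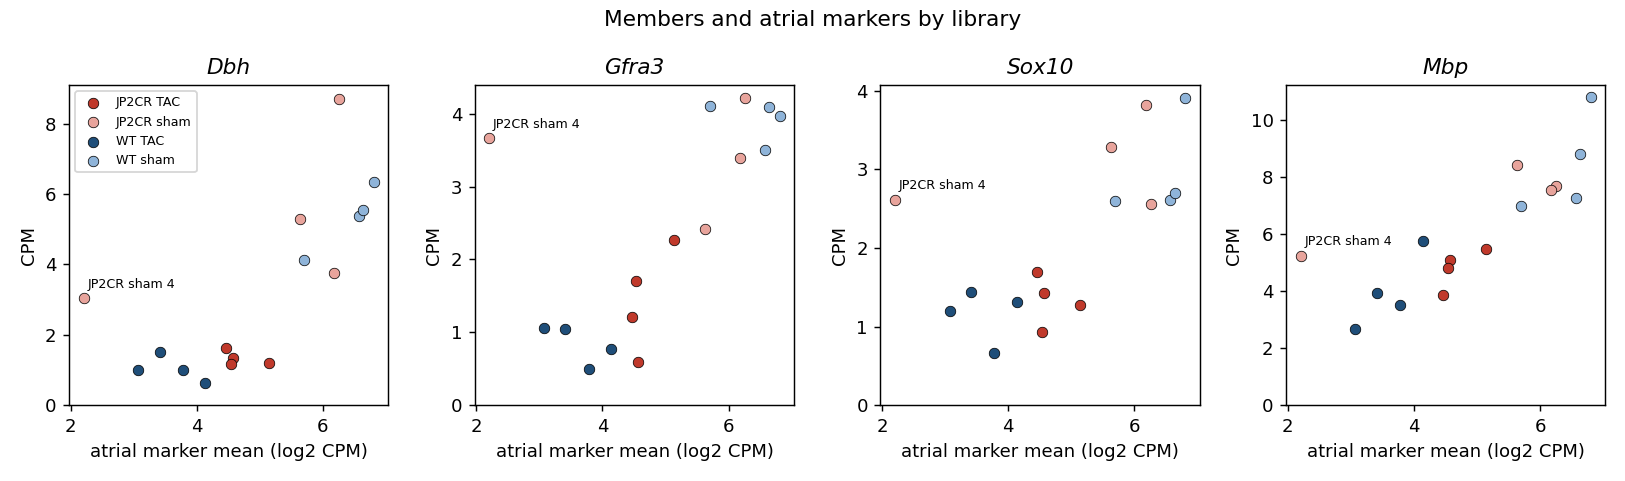
Levels in CPM of Dbh, Gfra3, Sox10 and Mbp (vertical axes, linear from 0) against the mean log2 CPM of 10 atrial markers (horizontal axis) in the 16 libraries, coloured by group. JP2CR sham 4, with an atrial mean of 2.21, lies above all TAC libraries for Dbh, Gfra3 and Sox10 and below 2 of the 8 for Mbp.

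Adipocyte markers (10 genes) had a mean log2 CPM of -0.51 to 3.37 in JP2CR TAC and -0.13 to 4.41 in JP2CR sham, and of -1.22 to 0.19 in WT TAC and 1.66 to 4.49 in WT sham. None of the 10 was called lower in JP2CR and 9 of 10 were in WT. With their mean as a covariate, edgeR called 2 of the 5 genes lower in WT, Dbh (-2.65, adjusted p = 0.000735) and Gfra3 (-2.10, adjusted p = 0.00309). Mbp (-0.74, adjusted p = 0.104) and Sox10 (-0.98, adjusted p = 0.0633) were not called there, and Cdh19 had 0.04 (adjusted p = 0.954). In JP2CR the same 4 genes were called with that covariate as without it. In WT with the adipocyte covariate, edgeR also no longer called Ddc (adjusted p = 0.0719), Slc18a2 (adjusted p = 0.542) or Ntrk2 (adjusted p = 0.108). Ntrk3 (adjusted p = 0.176) and Ache (adjusted p = 0.247) lost their WT edgeR calls there too. In WT neither the atrial nor the adipocyte mean overlapped between TAC and sham libraries, so these covariate fits cannot separate marker content from surgery there. The part of atrial and fat tissue in the fall of Dbh, Sox10, Gfra3 and Mbp was not tested.

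Skeletal muscle markers (8 genes, 4 of them tested) had a mean log2 CPM of 2.11 to 2.71 in JP2CR TAC and 2.18 to 3.28 in JP2CR sham, and of 1.98 to 2.26 in WT TAC and 3.14 to 3.39 in WT sham. In JP2CR 1 was called higher and 2 lower, and in WT 0 higher and 3 lower, among them Atp2a1, a calcium pump of fast muscle, at -1.92 ± 0.40 in JP2CR (edgeR adjusted p = 0.00104) and -4.19 ± 0.45 in WT (edgeR adjusted p = 1.21e-06). The summed level of 8 ventricular muscle markers was 55213 to 60200 CPM in JP2CR TAC and 68032 to 86806 in JP2CR sham, and 55059 to 59569 in WT TAC and 70946 to 75762 in WT sham. The part of these lists in the results on the nerve genes was not tested.

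Chromaffin cells, which also make Dbh, were read from Pnmt, Chga, Chgb and Cartpt. Their summed level was 1.5 to 1.94 CPM in JP2CR TAC and 1.28 to 2.34 in JP2CR sham, and 0.401 to 1.55 in WT TAC and 2.27 to 3.26 in WT sham. Pnmt, which turns noradrenaline into adrenaline, had -0.79 in JP2CR (edgeR adjusted p = 0.13) and -1.51 ± 0.41 in WT (edgeR adjusted p = 0.00686), and its part in the fall of Dbh was not tested. Oligodendrocytes, which also make Mbp and Sox10, have the markers Olig2, Opalin and Mobp, and these had 0 counts in all 16 libraries. The 3 other oligodendrocyte markers, Mog, Olig1 and Mag, had 6, 6 and 41 counts in all, the last of which Schwann cells also make. Melanocytes, which also depend on Sox10, were read from 6 other markers with a summed level of 61.2 to 74.5 CPM in JP2CR TAC and 81.1 to 91.3 in JP2CR sham, and of 69.6 to 80.9 in WT TAC and 80.6 to 85.3 in WT sham. Most of that sum was Mitf, which heart muscle also makes. Of the 3 that were tested, Mitf was lower and Dct higher after TAC in both genotypes, and Mlana was not called. Dct, a melanin enzyme, averaged 8.90 CPM in JP2CR TAC and 5.43 in JP2CR sham (edgeR log2 fold change 0.68, adjusted p = 0.0398), and 10.2 in WT TAC and 3.22 in WT sham (1.65 ± 0.27, adjusted p = 8.84e-05).

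The genes whose pattern lay nearest to the mean of the 5 tested genes were sought over all other tested genes, by the root mean square difference of log2 CPM, centred per gene, over the 16 libraries. They were Dhrs7c (0.170), Gstk1 (0.176), Gstt1 (0.180), Acaa2 (0.180) and Kcnj5 (0.182), while the median over all genes was 0.673. Kcnj5 is also among the 10 atrial markers. Sox10 itself lay at 0.259 from that mean, Mbp at 0.331, Gfra3 at 0.400, Cdh19 at 0.478 and Dbh at 0.497. The nearest genes are far more deeply counted than the nerve genes, with 9.41 CPM or more in each group, and their counting noise is smaller. Dhrs7c, for one, averaged 66.0 CPM in JP2CR TAC and 135 in JP2CR sham, and 61.0 in WT TAC and 139 in WT sham.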

How the data were processed

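Per the labels' protocols, ventricles were extracted with Trizol and polyadenylated RNA was sequenced from stranded libraries. The authors deposited raw whole-number counts for each gene symbol, and these were tested. Their table also holds log2 fold changes and adjusted p-values of unstated method, deposited by the authors and quoted only where that table is named. The build mm10 and the tools FastQC 1.0.0, STAR 2.5.0b, Picard 1.128, bedtools 2.17.0, DESeq2 1.6.3 and Cufflinks 2.2.1 come from the submitters' processing notes. What each tool did, how strand was counted and on which gene models is not given in the sources used here, so overlapping genes may share reads.

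Tests ran in edgeR 4.0.16 under R 4.3.3, with filterByExpr per group, TMM factors, 1 coefficient for each group over the 16 libraries and the quasi-likelihood F test, with calls at a Benjamini-Hochberg adjusted p under 0.05 over 13522 genes in each of 5 comparisons. The standard error is the size of the log2 fold change over the square root of F. CPM use the TMM-scaled library total, and values per kilobase use the union of annotated exons. In simulated counts for WT TAC against WT sham with 13522 genes, 28%, 76% and 97% of 1.5-, 2- and 4-fold changes of genes at 1 to 10 CPM were recovered, with 10 false calls. There 50, 50 and 100 genes were changed at these folds, far fewer than were called in the data. The shares recovered may therefore differ from those of the real fit. Alternatives were DESeq2 1.42.0, limma voom 3.58.1, size factors, upper-quartile factors, no filter, 1 CPM in 8 libraries, the groups compared alone, a replicate block, an adjusted p under 0.01, marker means as covariates, and leaving out libraries. Figures were drawn with matplotlib 3.10.9.

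The 7 genes and all lists and tests were chosen with earlier results of these data known. Named beside the 7 were the up to 4 genes of each list with the smallest p for TAC in either genotype, the 5 genes nearest in pattern, and defining markers of other cell types; Artn, Slc6a2, Phox2a, Chga and the markers Pnmt, Dct, Mitf, Mlana and Atp2a1 were named after their values were seen. Some genes that this rule takes are left out of the text. No mitochondrially encoded gene was analysed here, 27 symbols had been turned into dates, and 2 symbols stood on 2 entries. No libraries held identical values.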

Additional observations from a re-analysis of the deposited data

Results flagged for a closer look

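In 36 sets of 4 libraries (each of the 7 genes and the means of 2 marker lists, by group), a test for a lone value far from the other 3 picked out 6, where chance picks about 1 in 20. Th stood out in JP2CR sham 3 with 0.123 CPM, and Npy in WT TAC 4 with 0.0803 CPM, each against 0 in the other 3 libraries of the group. These are 2 counts and 1 count, under the floor of 3 counts, and any lone count beside 3 zeros is picked out this way, so these 2 of the 6 carry no information on the genes. Sox10 stood out in WT sham 2 with 3.91 CPM, the highest of its group, against 2.60 to 2.70 CPM. The atrial marker mean stood out in JP2CR TAC 4 with 5.14 (log2 CPM), the highest of its group, and in JP2CR sham 4 with 2.21, the lowest. The adipocyte marker mean stood out in WT TAC 4 with 0.188 (log2 CPM), the highest of its group.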

How the results depend on the processing

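The fitted log2 fold changes of the 5 tested genes in 5 comparisons were recomputed under 28 or 29 alternatives, 720 values in all. Of these, 707 stayed on their side of the threshold, 10 lost a call, 3 gained one, and none of the called values turned round. Many of the 707 had no call to lose, since none of the 5 genes was called in the interaction or between genotypes under any setting. All changes fell in the comparisons of TAC against sham, and Mbp in JP2CR lost its call in 7 of 29 alternatives. Uncalled values that changed sign are among the 707, such as Dbh between the sham groups (-0.40 to 0.36). Dbh ranged from -2.32 to -1.61 in JP2CR and from -2.65 to -1.68 in WT, Gfra3 from -1.53 to -0.95 and from -2.32 to -2.01, and Sox10 from -1.36 to -1.09 and from -1.47 to -0.98. The count of the 5 called lower in WT changed to 2 with the adipocyte marker mean as a covariate and to 3 with the atrial marker mean. The cause was not tested. With each library left out in turn, it stayed at 4 in WT and ran from 3 to 5 in JP2CR, with 0 called higher and 0 called in the other comparisons. Over all genes, the interaction calls ran from 0 to 159 lower and 0 to 213 higher under the alternatives (main 4 and 12), those of JP2CR TAC over WT TAC from 2 to 150 and 2 to 228 (main 39 and 49), those of JP2CR sham over WT sham from 2 to 44 and 0 to 20 (main 13 and 0), and those of WT TAC over WT sham from 1483 to 3162 and 1475 to 3142 (main 2817 and 2848). The highest counts of the interaction and of both genotype comparisons came without the 3 Xist-positive libraries, and the lowest of the interaction and of JP2CR TAC over WT TAC without replicate 3 of both TAC groups.

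With the replicate number as a block, 4 of the 5 genes were called lower in each genotype and 0 in the other comparisons, and Dbh in WT had -2.37 (edgeR adjusted p = 1.13e-05). Same-numbered libraries did not deviate together (correlations from -0.055 to 0.108), and not every library correlated best with its own number, so the numbers are taken as names. Depth limits Th and Npy most, since 3 counts are 0.185 to 0.314 CPM.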
